A study of Arabidopsis thaliana with 12 samples.

Results

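Cysteine-rich receptor-like kinases (CRKs) form a large family of plant receptor proteins. The genes described here are the nuclear protein-coding genes whose symbol is CRK and a number in the gene table used, 40 of 27444 such genes. The members were taken by symbol, and the family itself was chosen by the MAC3A peaks of these libraries at its genes. The number of libraries with a summit at each gene belongs to that choice, so these counts are given as a description, with no test. By the table's own descriptions, 38 of the 40 are cysteine-rich receptor-like kinases. The other 2 are CRK1 (AT2G41140) and a second gene called CRK3 (AT2G46700). They are CDPK-related kinases, calcium-signalling kinases of another family, and therefore go against the family name. Below, CRK3 without a locus number means the cysteine-rich kinase AT1G70530. The table lists RKF2, EP1, EMB1290 and ARCK1 as CRK1, CRK9, CRK17 and CRK45 among synonyms only, so these kinases are not among the 40.

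MAC3A was mapped by ChIP-seq, in which DNA bound by a protein is pulled down and sequenced, in Arabidopsis thaliana seedlings labelled Columbia-4 and grown for 6 days. The samples are 3 MAC3A libraries labelled blue, 3 MAC3A libraries labelled dark, and 3 control samples for each condition, which were not analysed here. The plants of both conditions carried a MAC3A-GFP transgene, and the control is described as a line with GFP alone, although the sample titles call it input. The antibody field names anti-FLAG, the sources used here do not name the transgene's promoter, and the growth notes mention blue light for every sample. The condition of a library therefore rests on its title.

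A CRK protein carries an extracellular part with cysteine-rich DUF26 repeats, a membrane-spanning stretch and an intracellular serine/threonine kinase domain. Many CRK genes are induced by pathogens, salicylic acid or reactive oxygen species, and members of the family act in immunity, cell death and stress signalling. MAC3A is a plant Prp19-type U-box protein that works in pre-mRNA splicing, and the MOS4-associated complex that holds it is itself required for innate immunity. The series title sets MAC3A beside cryptochromes and HY5, and the question put to the CRK genes was where MAC3A lay on them and how its peaks in blue light compared with those in the dark.

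The blue lists held 1505, 1820 and 1578 peaks and the dark lists 1285, 1225 and 1169. Each peak has at least 1 summit, its point of highest enrichment, and each summit has a fold enrichment over local background and a −log10 q, both computed by the authors' caller within 1 library. The median fold of a summit was 2.78 to 2.85 in the blue lists and 3.33 to 3.37 in the dark lists, so folds are set against their own list and not across conditions. The lowest −log10 q was 2.0 to 2.02 in all 6 lists, and a gene without a summit is a gene with no called peak at that limit. Read totals were not used here. Nothing in the labels says that replicates came from separate cultures, so differences between libraries may be technical.

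MAC3A summits lay at 10 of the 40 CRK genes in at least 1 library, in the gene or within 1 kb of either end. These were CRK2, CRK3, CRK10, CRK12, CRK13, CRK19, CRK20, CRK26, CRK40 and CRK41, all of them cysteine-rich kinases. The share of all protein-coding nuclear genes with a summit in any library was 13.7%. In blue light 6 CRK genes had a summit in at least 2 of 3 libraries, against 7.37% of all protein-coding genes. In the dark 10 did, against 5.62% of all. All 6 of the blue-light genes were among the 10 in the dark, and 4.16% of all genes met both criteria.

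Counted library by library, 5, 6 and 6 CRK genes had a summit in blue replicates 1, 2 and 3, and 10, 10 and 8 in dark replicates 1, 2 and 3. Over all protein-coding genes the shares were 7.32%, 8.7% and 7.61% in the blue libraries and 6.27%, 6.04% and 5.74% in the dark libraries. The CRK counts were thus lower in every blue library than in any dark library, while the shares over all genes were higher in every blue library. These CRK counts are part of how the family was chosen. A peak shared by CRK12 and CRK13 in all 6 libraries counts for both genes, as does that of CRK2 and CRK3 in dark replicates 1 and 2. CRK genes are also long: their median length was 2958 bp, against 2078 bp for protein-coding nuclear genes, and a longer gene offers a wider window for a summit. The part of length in these counts was not tested. Among the CRK genes themselves the median length was 2986.5 bp with a summit and 2907.5 bp without.

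**Figure D1:**
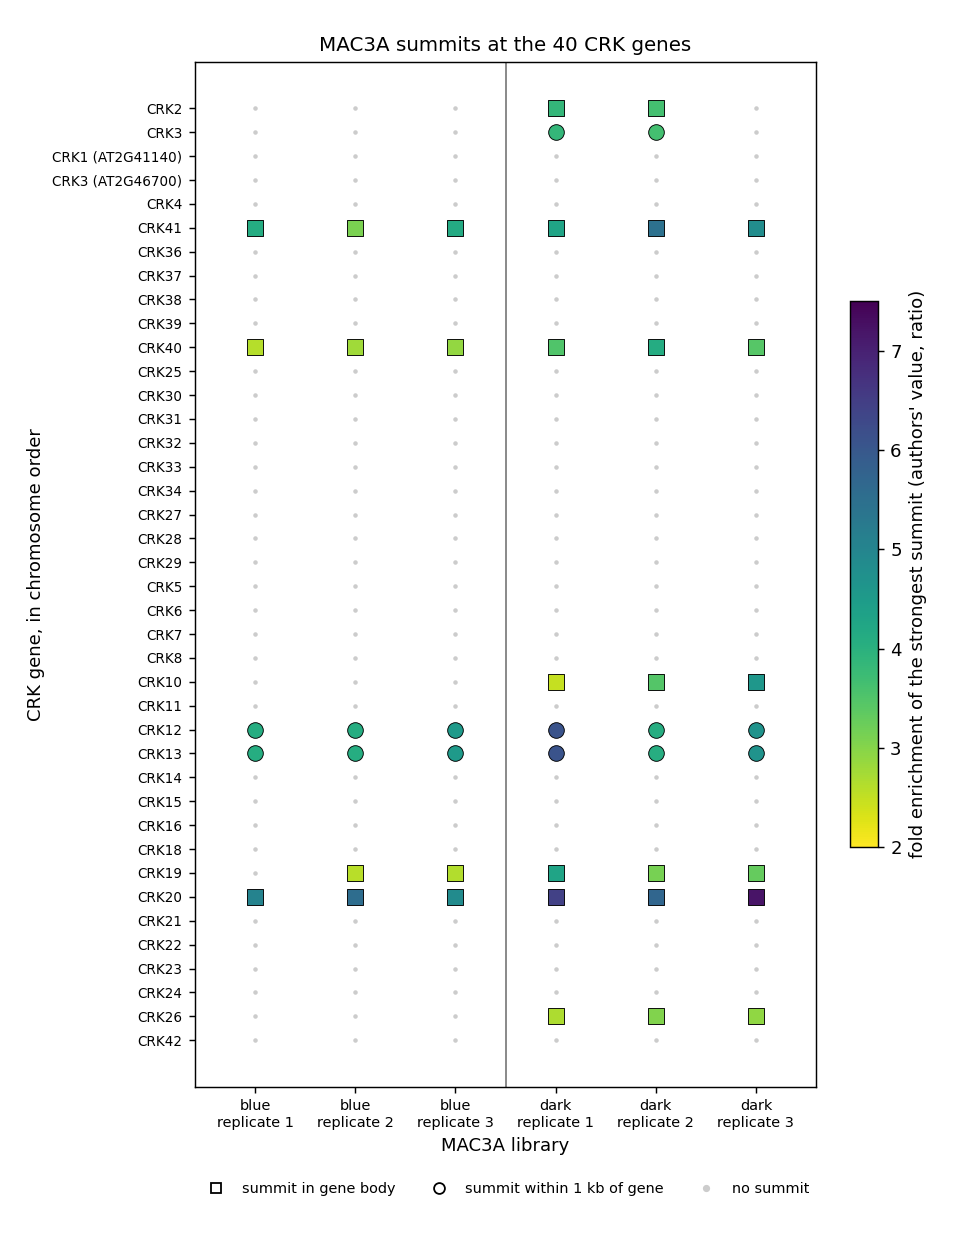
MAC3A summits at the 40 CRK genes (rows, in chromosome order) in 3 blue and 3 dark libraries (columns). Squares mark a strongest summit, by −log10 q, in the gene body, circles within 1 kb of the gene, and small dots no summit. Colour is the authors' fold enrichment at that summit. CRK20, CRK41, CRK40 and the pair CRK12 and CRK13 are filled in all 6 columns, and CRK10 and CRK26 in no blue column and in all 3 dark columns; CRK3 had a further summit in its body in dark replicate 2.

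Most CRK summits were inside genes, as were 79.1% of all summits of these libraries. In blue light 4 CRK genes had a body summit in at least 2 libraries, against 3.72% of all protein-coding genes, and in the dark 7 did, against 3.14% of all. Counting any library, 8 CRK genes had a body summit, against 7.51% of all. CRK12 and CRK13 had summits only beside the gene, in the gap between them. Body summits were present in all 6 libraries at 3 CRK genes, CRK20, CRK40 and CRK41, against 1.59% of all genes, and with 1 kb at either end CRK12 and CRK13 joined them, against 2.7% of all genes.

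CRK20 (AT4G23280) had the highest fold of the family in every library. Overexpression of CRK20 is known to cause cell death, and its loss affects growth of the bacterium Pseudomonas syringae in leaves. Its strongest summit had folds of 5.05, 5.56 and 4.87 in blue replicates 1, 2 and 3, and 6.44, 5.71 and 7.22 in dark replicates 1, 2 and 3. Every blue fold was lower than every dark fold, which also held at 42.4% of the 533 regions with peaks in all 6 libraries, in lists whose median folds differ. In each list the peak stood well above the middle: 88.9% to 92.8% of the peaks of the blue lists and 82.5% to 89.8% of those of the dark lists had a lower −log10 q. The peaks lay on chromosome 4 between 12175662 and 12176507 (TAIR10). All 6 strongest summits fell within 36 bp of each other, 48% to 49.3% along the gene. Positions along a gene are counted from the end with the lower coordinate, since the gene table gives no strand. In blue replicate 2 and dark replicates 1 and 3 the peak had a second, lower summit, 343, 326 and 338 bp from the first, with folds of 2.55, 3.05 and 3.53. In each of these libraries both summits stood in the same peak interval, over the middle of the gene.

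CRK12 (AT4G23200) and CRK13 (AT4G23210) shared a peak. CRK13, also called HIG1, is a kinase whose overexpression is known to raise salicylic acid and disease resistance. The summit lay between the genes, 101, 99 and 82 bp from CRK13 in blue replicates 1, 2 and 3, and 89, 114 and 99 bp from it in dark replicates 1, 2 and 3. Its distance from CRK12 was 531 to 550 bp in blue light and 518 to 543 bp in the dark, so CRK13 was the nearer gene in every library. Folds were 4.09, 4.09 and 4.53 in blue replicates 1, 2 and 3, against 6.1, 4.08 and 4.68 in dark replicates 1, 2 and 3. The ranges of the conditions overlapped, with dark replicate 1 highest. The peaks lay on chromosome 4 between 12148372 and 12148787 and reached into CRK13 but not into CRK12. Counted only for its nearest gene, this summit left CRK12 without any.

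CRK41 (AT4G00970), a kinase linked to the response to salt, had a body summit in all 6 libraries. Folds were 4.12, 3.1 and 4.15 in blue replicates 1, 2 and 3, and 4.28, 5.47 and 4.83 in dark replicates 1, 2 and 3. As at CRK20 and at 42.4% of the 533 regions with peaks in all 6 libraries, the blue folds were all lower than the dark folds. Between 73.8% and 85.8% of the peaks of the blue lists and 74.8% and 80.4% of those of the dark lists had a lower −log10 q. The strongest summits lay 25.7% to 28.5% along the gene and within 102 bp of each other, in peaks on chromosome 4 between 418917 and 419568. In each list it stood below CRK20. It stood below the CRK12 and CRK13 peak in blue replicates 2 and 3 and dark replicate 1, and above it in blue replicate 1 and dark replicates 2 and 3.

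CRK40 (AT4G04570) also had a body summit in all 6 libraries, but a weaker one. Folds were 2.61, 2.78 and 2.89 in blue replicates 1, 2 and 3, and 3.51, 4.12 and 3.45 in dark replicates 1, 2 and 3. The blue folds were again all lower than the dark folds, as at 42.4% of the 533 regions with peaks in all 6 libraries. The blue values lay around the median fold of their lists and the dark values above it. By −log10 q, 20.9%, 31.8% and 39.4% of the peaks of blue replicates 1, 2 and 3 stood below the CRK40 peak. In dark replicates 1, 2 and 3 the shares were 43.7%, 63.7% and 38.5%, above the middle of the list only in dark replicate 2. The summits lay 77.5% to 80.4% along the gene, in peaks on chromosome 4 between 2291842 and 2292245. At a fold of at least 3 CRK40 was left with no blue library and with all 3 dark libraries.

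CRK19 (AT4G23270), which like CRK20 causes cell death when overexpressed, had a body summit in 5 libraries. It had none in blue replicate 1, folds of 2.6 and 2.64 in blue replicates 2 and 3, and folds of 4.28, 3.12 and 3.29 in dark replicates 1, 2 and 3. The blue summits were low in their lists, with 15.7% and 29.7% of peaks below them, and the dark summits were in the middle, with 41.2% to 67.9% below. All 5 summits lay 41.2% to 43.7% along the gene, in peaks on chromosome 4 between 12172031 and 12172563. CRK19 and CRK20 lie near each other on the chromosome, yet their peaks were separate in every library that had both.

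CRK10 (AT4G23180), also called RLK4, is a kinase whose overactive form is known to switch on defence genes and stunt growth. It had summits in the dark lists only. No blue list had a summit closer than 7642 bp to the gene, and the folds were 2.49, 3.47 and 4.59 in dark replicates 1, 2 and 3. The −log10 q was 3.51, 8.49 and 12.4 in dark replicates 1, 2 and 3, so dark replicate 1 was near the limit of its list and the others were not. The strongest summits lay 33.7% to 34.5% along the gene and within 23 bp of each other, in peaks on chromosome 4 between 12138366 and 12139256. Dark replicates 1 and 2 had a second summit in the same peak, 593 and 428 bp from the strongest, with folds of 2.51 and 2.54. The strongest summit is the one with the highest −log10 q. In dark replicate 1 its fold of 2.49 was just under that of the second.

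CRK26 (AT4G38830) likewise had no summit in a blue library, the nearest being 24356 bp away, and a body summit in each dark library. Folds were 2.68, 3.04 and 2.91 in dark replicates 1, 2 and 3. All of these lay under the median of their lists, and the −log10 q of 3.19, 3.8 and 3.38 was not far above the lower limit. Its strongest summits spread over 302 bp, 25.2% to 36.1% along the gene, in peaks on chromosome 4 between 18122766 and 18123356. At a −log10 q of at least 5 CRK26 had no summit in any library, and CRK10 had no blue library and 2 dark libraries.

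CRK2 (AT1G70520), a kinase known to phosphorylate the NADPH oxidase RBOHD, and its neighbour CRK3 (AT1G70530) shared a peak in dark replicates 1 and 2. The nearest blue summit was 10357 bp from CRK2 and 6209 bp from CRK3. The dark summit lay in the body of CRK2, 115 and 126 bp from its end, and 878 and 889 bp outside CRK3. Folds were 3.85 and 3.64, in peaks on chromosome 1 between 26587366 and 26587740. CRK3 also had a summit inside its body in dark replicate 2 only, with a fold of 3.16, in a peak on chromosome 1 from 26591512 to 26591720. These 878 and 889 bp were the largest distances that still counted. The nearest summit to fall outside the 1 kb limit was 1600 bp from CRK21.

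The conditions were then compared gene by gene. No CRK gene had a summit in all 3 blue and no dark library, against 1.14% of all protein-coding genes. For the reverse pattern the genes were CRK10 and CRK26, against 0.401% of all. With at least 2 libraries of a condition and none of the other, the count for blue light was 0 CRK genes, against 2.28% of all. For the dark it was 4, against 0.969% of all. Of these 4, CRK2 and CRK3 met the rule only through the peak they share. Since the family was chosen by these counts, no p is given for its members. Over the 20 ways to split 6 libraries into 3 and 3, the smallest p of a two-sided exact permutation test is 0.10, so that no gene of the 3752 with a summit in any library could pass 0.05. Without dark replicate 3 the genes with summits in no blue library and every remaining dark library numbered 4, CRK2 and CRK3 being added by their shared peak. The share of 0.401% does not belong to this looser rule, and no share over all genes is given for it.

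The genes found at a stricter limit were not the same. At a fold of at least 3 the count of CRK genes with no blue and 3 dark libraries was again 2, but these were CRK19 and CRK40, and none was shared with the main count. Folds ran lower in the blue lists as a whole, and the blue summits of both genes had folds under 3. With lists cut to the same 1169 best peaks each, the genes were CRK10 and CRK26. At a −log10 q of at least 5 there was none. No share over all genes is given at these settings.

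**Figure D2:**
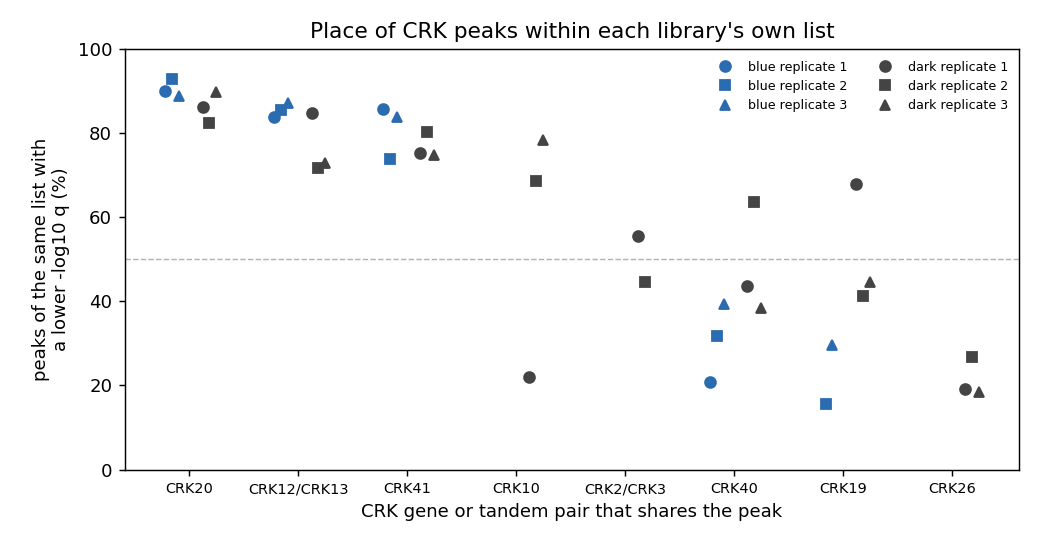
For each CRK gene or tandem pair with a peak (x axis), the share of peaks in the same library's list with a lower −log10 q (y axis, %), with blue libraries left of dark libraries. CRK20 lies between 82.5% and 92.8% in all 6 lists, while CRK26 lies between 18.5% and 26.8% in the 3 dark lists.

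Merged over libraries where they overlapped by at least 1 bp, the CRK peaks formed 9 regions. Of these, 4 had peaks in all 6 libraries, or 44.4%, against 18.3% of all 2917 regions. The CRK share rests on 9 regions. A higher share can follow from the choice of the family by MAC3A peaks at its genes. The region in the body of CRK3 came from 1 library. No tRNA, long non-coding RNA or other annotated gene overlapped any of the 9 regions, each of which lay over a single CRK gene.

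Width and summit position are described at the 4 regions with peaks in all 6 libraries. These regions were chosen by their peaks in the same libraries, and the place of the summit is part of how genes were counted, so no p is given for them. The peak beside CRK13 was 387, 380 and 367 bp wide in blue replicates 1, 2 and 3, and 318, 362 and 308 bp wide in dark replicates 1, 2 and 3. The groups did not overlap, with a mean of 378 ± 10.1 bp in blue light and 329 ± 28.7 bp in the dark (SD, n = 3 each). Among all 533 regions, 23.3% had widths at the smallest p of the exact permutation test, and the median difference, blue minus dark, was 26 bp. CRK20 was 728 ± 90.2 bp wide in blue light and 761 ± 67.0 bp in the dark (SD, n = 3 each). CRK41 was 566 ± 60.3 bp wide in blue light and 533 ± 27.1 bp in the dark (SD, n = 3 each). CRK40 was 299 ± 68.8 bp wide in blue light and 349 ± 18.0 bp in the dark (SD, n = 3 each).

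The summit positions of the conditions overlapped at each of these 4 regions. Among all 533 regions, only 10.7% had summit positions at the smallest p of the exact permutation test, so overlap is usual. The mean summit of blue light lay 17.0 bp from that of the dark at CRK41, 10.7 bp at CRK40, 6.67 bp at CRK13 and -2.0 bp at CRK20, positive values being higher coordinates (n = 3 each). The strongest summits of the 6 libraries ranged over 102 bp at CRK41, 126 bp at CRK40, 32 bp at CRK13 and 36 bp at CRK20, beside a median range of 80 bp over the 533 regions.

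Most CRK genes lie on chromosome 4, 34 of the 40, many of them in tandem. The longest array runs from CRK5 to CRK24 over 74.2 kb and holds 18 of the 40 genes with EP1, EMB1290 and AT4G23271 among them. MAC3A summits lay at 5 of the 18, CRK10, CRK12, CRK13, CRK19 and CRK20, in 4 regions. That is 18.6 kb per region, beside 40.8 kb per region from the first to the last gene of the 5 chromosomes. The family was chosen by MAC3A peaks at its genes, so a closer spacing in its array can follow from that choice. The array value rests on 4 regions, and the chromosome span was not matched to the array for gene density. The difference in spacing was not tested. The peaks stood apart within the array: CRK11, between CRK10 and CRK12, had no summit within 1891 bp, and the closest to CRK21, next to CRK20, was 1600 bp away.

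**Figure D3:**
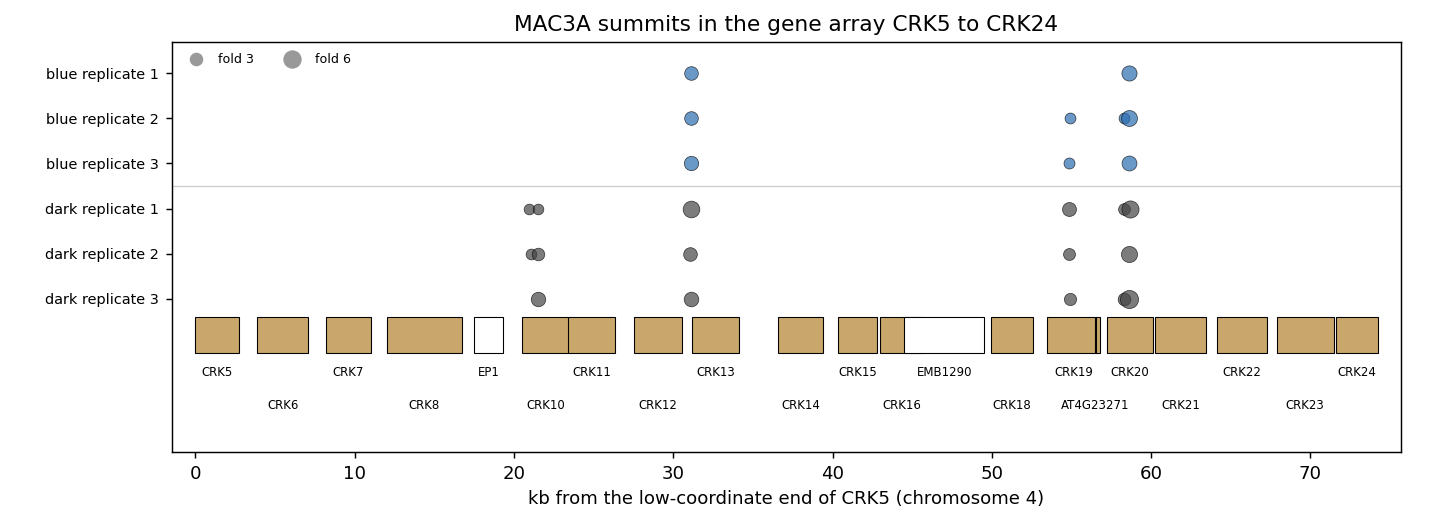
MAC3A summits in the array CRK5 to CRK24, by distance from the low-coordinate end of CRK5 in kb. Each row is a library, with blue libraries above dark libraries, dot area follows the fold, and boxes are protein-coding genes, filled for the CRK genes. The summits fall in 4 places, at CRK10 in the dark rows only, at the gap before CRK13, at CRK19 and at CRK20.

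Outside this array the tandem neighbours CRK2 and CRK3 on chromosome 1 also had summits. CRK36, CRK37, CRK38 and CRK39 lay 29666 to 57297 bp from the nearest summit of any library, and CRK30 to CRK34 lay 85815 to 109132 bp away. Taking as tandem those CRK genes with no other protein-coding gene between them, 7 of 29 tandem genes and 3 of 11 other CRK genes had a summit. The 7 include CRK2 with CRK3 and CRK12 with CRK13, pairs that share a peak. The 11 include both CDPK-related kinases, which had no summit. The share of all protein-coding nuclear genes in any library was 13.7%. Near-identical copies can share or lose reads in alignment, and how such reads were treated is not given in the sources used here. Its part in the counts was not tested.

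The 30 CRK genes without a summit in any library were CRK4 to CRK8, CRK11, CRK14 to CRK16, CRK18, CRK21 to CRK25, CRK27 to CRK34, CRK36 to CRK39, CRK42 and both CDPK-related kinases. They include well-studied immune kinases, such as CRK28, a partner of the co-receptor BAK1, and CRK5, CRK6 and CRK7, which act in responses to reactive oxygen species. Their median distance to the nearest summit of any library was 16023 bp, and 4 of them, CRK21, CRK11, CRK18 and CRK8, had a summit within 5 kb. The CDPK-related CRK1 and CRK3 lay 6187 and 5122 bp from the nearest summit. Of the cysteine-rich kinases listed under other symbols, RKF2, EP1, EMB1290 and ARCK1, 0 of 4 had a summit in any library. Over all protein-coding nuclear genes the share was 13.7%, so 0 of 4 says little. Among the 38 cysteine-rich kinases alone, 6 had a summit in at least 2 blue libraries and 10 in at least 2 dark libraries, as among the 40.

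Genes of related receptors and of immune signalling are given for comparison, from lists made by gene name with earlier results of these data known. Of 7 genes for PDLP proteins, plasmodesmal proteins that share the DUF26 repeat, none had a summit in any library. Nor did any of 5 SERK and BAK1 co-receptor genes. The share of all protein-coding nuclear genes with a summit in any library was 13.7%, so a count of none in lists this small says little. In at least 2 libraries of a condition the shares were 7.37% in blue light and 5.62% in the dark. Of 14 PERK proline-rich kinase genes, none had a summit in at least 2 libraries of either condition, and PERK10 had a summit in 1 blue library. Among receptor kinases without DUF26 repeats, 4 of 12 wall-associated kinase genes had a summit in at least 2 blue libraries and 2 of 12 in at least 2 dark libraries. WAKL2 and WAKL1, neighbours in a tandem array, had summits in all 6, with median folds of 7.63 in blue light and 10.8 in the dark at WAKL2, and of 4.91 in blue light and 5.58 in the dark at WAKL1. At WAKL2 and WAKL1 a summit lay in the gene body in 0 blue libraries and 1 dark library, and otherwise only beside the gene. WAKL7 and WAKL6 had summits in 2 blue libraries and 1 dark library, all beside the gene. Both had median folds of 2.58 in blue light and 3.48 in the dark, so they may share a peak. Among 5 LysM kinase genes, LYK4, a chitin receptor partner, had body summits in 2 blue and 3 dark libraries, and the chitin receptor gene LYK5 in no blue and 3 dark libraries. With 1 kb at either end, 0.401% of all protein-coding genes had summits in no blue and 3 dark libraries. The median dark fold at LYK5 was 2.14, under the medians of 3.33 to 3.37 of the dark lists.

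Of 21 genes for immune receptors and partners in the production of reactive oxygen, 2 had a summit in at least 2 blue libraries and 6 in at least 2 dark libraries. The shares over all protein-coding nuclear genes were 7.37% in blue light and 5.62% in the dark. RBOHF, an NADPH oxidase, and MPK3, a MAP kinase of immune signalling, had summits in all 6 libraries, with median folds of 3.14 in blue light and 3.87 in the dark at RBOHF, and of 2.7 in blue light and 4.2 in the dark at MPK3. At MPK3 a summit lay in the gene body in 1 blue library and 0 dark libraries, and otherwise only beside the gene. CPK28, a calcium-dependent kinase that limits immune signalling, had body summits in no blue and 3 dark libraries. With 1 kb at either end, 0.401% of all protein-coding genes had this pattern. LYK5 stands in this list too. Of 22 genes of salicylic acid and defence, 6 had a summit in at least 2 blue libraries and 6 in at least 2 dark libraries, beside the same shares of all genes. The transcription factor genes WRKY60 and WRKY33 had summits in all 6 libraries, with median folds of 4.81 in blue light and 6.62 in the dark at WRKY60, and of 2.55 in blue light and 3.65 in the dark at WRKY33. TGA1, which encodes a salicylic acid-response transcription factor, had body summits in 3 blue and 2 dark libraries, and EDS5, the salicylic acid exporter gene, in 2 blue and 3 dark libraries. The lists are small and differ in gene length, from a median of 2106 bp for the PDLP genes to 4342 bp for SERK and BAK1, and no test was made between them.

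**Figure D4:**
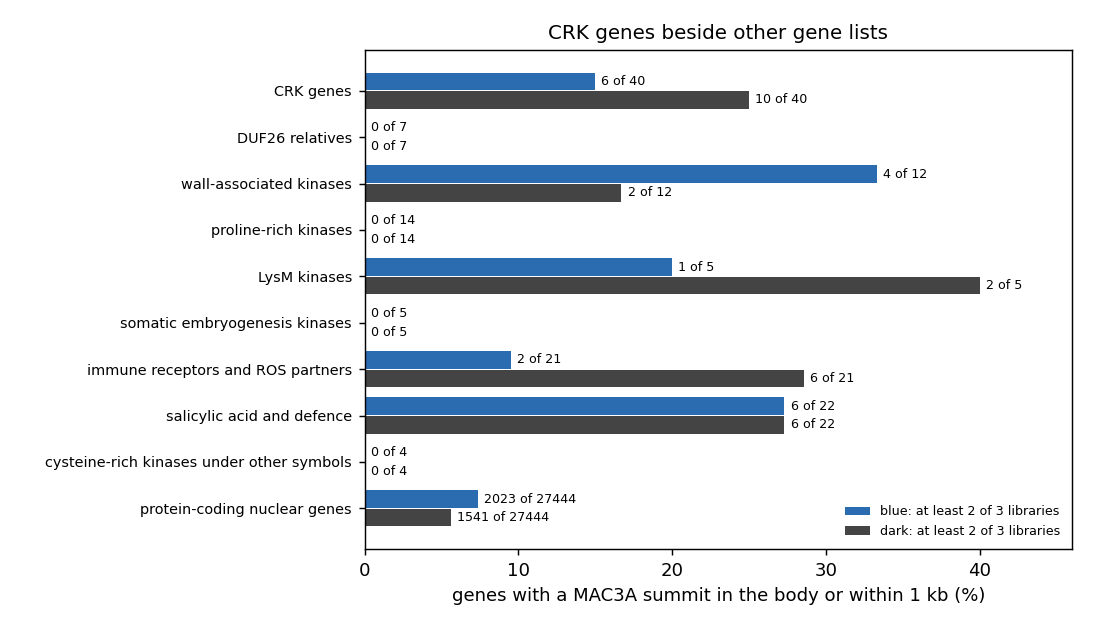
Share of genes (%) with a MAC3A summit in the body or within 1 kb in at least 2 of 3 libraries, for the CRK genes, related lists and all protein-coding nuclear genes, with the blue bar above the dark bar and counts at the bar ends. CRK genes reach 15% in blue light and 25% in the dark, beside 7.37% of all protein-coding nuclear genes in blue light and 5.62% in the dark.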

How the data were processed

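Peak lists in narrowPeak layout were used as deposited, 1 for each of the 6 MAC3A libraries. The tools named per the submitters' processing notes are MACS2 2.1.1, Bowtie2, ChIPseeker and SAMtools, and the build is TAIR10; the sources used here give no order, parameters or control for each list. In the deposited lists the fold is a ratio over local background, and the authors' −log10 p and −log10 q are given per summit, with q adjusted within each library. The deposited whole-number score repeats the q value and was not used, nor was the −log10 p. Fold and −log10 q described, ranked or filtered peaks within a list.

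All summits were placed in genes of the TAIR10.1 table or within 1 kb of either end. As a check of the assemblies, 79.1% of summits lay in gene bodies, against 63.8% to 69.6% after 6 shifts of up to 5000 bp either way. Printed coordinates come from the peak lists and count from 1. A summit near several genes counted for each. The placing and the exact permutation tests were tested on simulated data. Work was done in Python 3.11.15 with pandas 2.3.3 and NumPy 2.4.6.

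The genes and lists were chosen with earlier results of these data known. Named genes are all CRK genes and, of each other list, up to 4 with the most libraries. The width and summit comparisons were chosen after the data were seen. Limits on −log10 q and fold, lists of equal length, windows, nearest genes, interval overlap, numbers of libraries and leaving out libraries were tried as alternatives. The planned cysteine motif and promoter motif counts were not run, since no sequences were used here. No symbol in the table has the form CRRSP and a number.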

Additional observations from a re-analysis of the deposited data

How the results depend on the processing

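Of the CRK genes with a body summit in at least 2 blue libraries, 4 by the main count, 2 were left with lists of equal length, with a fold limit of 3 and with a −log10 q limit of 5; these settings take away the weaker summits, which at CRK40 and CRK19 were weak in the blue lists. The count of CRK genes with summits in no blue and 3 dark libraries was 0 with the −log10 q limit, and ran from 2 to 4 when each library was left out, the 4 being without dark replicate 3. Leaving out each library gave 5 to 6 genes for blue light and 8 to 10 for the dark with 1 kb at either end, and 3 to 4 for blue light and 6 to 7 for the dark with bodies only. The other alternatives kept each count within 1.5 times its main value. With 1 kb at either end, the blue count fell from 6 to 4 at a −log10 q of 5, at a fold of 3 and with lists of equal length. The dark count, 10 in the main setting, was then 9, 9 and 10. With each summit counted only for its nearest gene, the counts were 5 for blue light and 8 for the dark. With 3 kb at either end they were 8 and 13. No share over all genes is given for these alternatives. Membership by annotation as cysteine-rich, chosen after seeing the data, left every count as it was. Same-numbered libraries did not deviate together (r = -0.00556, -0.0148 and 0.0179 over 3752 genes), so the numbers were not taken as pairs; with the replicate block the smallest p that an exact sign-flip permutation over 3 pairs can give is 0.25, so it could call no gene. Lists of called peaks do not show binding below the caller's limit, and the longer blue lists differ from the dark lists in their number of peaks.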
